A study of Mus musculus with 48 samples.

Results

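Goblet cell and mucus genes were followed in the colon and liver of young adult mice: *Muc2*, *Tff3*, *Clca1*, *Fcgbp*, *Zg16*, *Agr2*, *Spink4*, *Retnlb*, *Spdef* and *Atoh1*. They were chosen by name, and every array probe whose accession maps to one of these symbols was used. All 10 genes were found, as 13 of the 41174 probes and among 18434 named genes. *Muc2* had 3 probes, *Fcgbp* had 2 and each other gene had 1, and where a gene had several, its main probe was the one with the brightest mean signal on the colon arrays.

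C57/BL6 dams, from before mating, and later their pups were fed a high-fat diet. It was either supplemented with selenium and folate (diet H) or marginally, not severely, deficient in both (diet L). Group names pair the dam's diet through gestation and lactation, written first, with that of her offspring from weaning to 12 weeks of age, so HH and LL stayed on 1 diet while HL and LH were switched. All 4 groups shared the high-fat base, and no group was fed standard chow. RNA of whole colon and of liver was measured on 48 two-colour arrays, with 6 colon mice in each group and, in the liver, 5 HH mice and 6 of each other group, since 2 HH liver arrays carry the same animal code. Which pups shared a dam is not given in the sources used here, so littermates may be counted as separate mice. The animal codes do not tie a colon to a liver.

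Goblet cells are the mucus-secreting cells of the intestinal epithelium. They arise from crypt progenitors in which the transcription factor Atoh1 directs cells to the secretory fate, and Spdef drives their maturation. Their main product is the gel-forming mucin Muc2, which is folded with the help of the protein disulphide isomerase Agr2 in the endoplasmic reticulum and, once secreted, forms the mucus gel together with Fcgbp, Clca1, Zg16 and Tff3. Retnlb is a secreted resistin-like protein that is induced by bacterial colonisation and type 2 cytokines, and Spink4 is a small peptide of the Kazal inhibitor family.

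Levels are given as the log2 ratio of the mouse (Cy3) over a common reference RNA (Cy5), so that 0 means equal to the reference and 1 means a doubling. The reference is described in 2 ways, as pooled intestinal and liver RNA of all mice and as RNA of a whole pregnant mouse with foetus, and its make-up is therefore unsettled. Each of the 12 slides carried 4 arrays, 1 of each group and all of 1 tissue. Spots well above background in Cy3 made up 66.8% to 73.7% on the colon arrays and 55.1% to 66.0% on the liver arrays. How precise a value is depends on how many arrays there are. Of the mice, described as male, 6 in the colon (HH 1, HH 5, HL 5, LL 1, LL 3 and LL 5) and 2 in the liver (HL 2 and LL 6) had a log2 Cy3 signal of the female-expressed gene *Xist* over 9. *Eif2s3y*, a Y-linked gene, was at or under 9 in HL 5, LL 1 and LL 3 of the colon and in HL 2 of the liver. Colon mouse LL 4 also stood apart. Its mean over 9 lymphocyte and plasma cell markers was 1.57, against at most 0.17 in the other colon mice, and of all 24 colon mice it had the lowest mean for other goblet cell products (-0.10), absorptive colonocytes (-0.24), epithelium (0.02) and smooth muscle (1.34). Values without these mice stand beside several of the results below, but not beside each result that was recomputed. The tissue labels fitted their defining markers: 6 of 6 measured hepatocyte markers were lower in the colon, while 7 of 8 epithelial and 10 of 10 smooth muscle markers were higher there.

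RefSeq promoter sequences (build GRCm38.p6) were available for 5 of the 10 genes, from 250 bases before to 50 bases after the start. Those of *Muc2*, *Agr2*, *Fcgbp* and *Spdef* are shown because they belong to the main mucin, its folding enzyme, a mucin-like partner and the transcription factor of goblet cell maturation. Capitals mark GGAT, the core that Spdef prefers among ETS factors, and CAGCTG, a form of the E-box that Atoh1 and other basic helix-loop-helix factors bind. Both strands were searched, so that GGAT also appears as ATCC. They are written 5′ to 3′ on the strand of the gene. The sequence of *Spdef* lies inside the annotated span of the gene (27714446 to 27731003), so it belongs to a start within the gene and not to its outermost one.
*Muc2*, chr7:141690090-141690389, plus strand: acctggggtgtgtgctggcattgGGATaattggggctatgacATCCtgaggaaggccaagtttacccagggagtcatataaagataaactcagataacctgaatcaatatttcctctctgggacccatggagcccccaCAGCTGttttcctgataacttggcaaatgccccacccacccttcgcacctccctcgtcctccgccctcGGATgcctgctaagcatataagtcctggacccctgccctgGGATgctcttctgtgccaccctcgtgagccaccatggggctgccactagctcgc
*Agr2*, chr12:35992675-35992974, plus strand: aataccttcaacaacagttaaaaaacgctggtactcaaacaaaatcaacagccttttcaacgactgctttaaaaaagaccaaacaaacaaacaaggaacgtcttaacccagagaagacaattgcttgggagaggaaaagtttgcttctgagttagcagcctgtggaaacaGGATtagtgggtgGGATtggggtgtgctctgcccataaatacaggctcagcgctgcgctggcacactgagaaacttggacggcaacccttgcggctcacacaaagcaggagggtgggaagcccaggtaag
*Fcgbp*, chr7:28070986-28071285, plus strand: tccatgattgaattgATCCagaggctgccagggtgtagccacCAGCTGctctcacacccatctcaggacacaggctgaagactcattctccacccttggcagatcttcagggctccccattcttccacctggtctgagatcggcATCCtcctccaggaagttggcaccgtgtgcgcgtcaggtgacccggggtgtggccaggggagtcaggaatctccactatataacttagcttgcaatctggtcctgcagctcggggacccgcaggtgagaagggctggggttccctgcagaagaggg
*Spdef*, chr17:27728902-27729201, minus strand: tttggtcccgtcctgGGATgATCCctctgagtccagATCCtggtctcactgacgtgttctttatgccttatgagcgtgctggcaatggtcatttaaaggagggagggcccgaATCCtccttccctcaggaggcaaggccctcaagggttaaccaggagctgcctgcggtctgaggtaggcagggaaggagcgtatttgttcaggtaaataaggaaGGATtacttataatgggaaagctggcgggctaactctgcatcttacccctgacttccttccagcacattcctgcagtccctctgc
GGAT was found 4 times for *Muc2*, 2 times each for *Agr2* and *Fcgbp* and 5 times for *Spdef*. At least 4 copies were present in 11.5% of the 32851 promoters of the table, at least 5 in 4.43%, at least 2 in 50.9% and at least 1 in 79.6%. CAGCTG was found once each for *Muc2* and *Fcgbp*, and 16.3% of all promoters hold it. In the promoter of *Atoh1* neither motif was found. These letter matches are a description and do not show binding.

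In the colon all 13 probes were well above background in Cy3 on 24 of 24 arrays and none was saturated. *Muc2* lay above the reference in every mouse, from 0.99 (HH) to 1.66 (HL), with a mean of 1.39 ± 0.20 (SD, n = 24). *Agr2* ranged from 0.94 to 1.83, with a mean of 1.29 ± 0.23 (SD, n = 24). The 4 groups overlapped for both genes. Among the other constituents of the gel, *Tff3*, a trefoil peptide of mucosal repair, ranged from 0.51 to 1.35 (mean 0.91 ± 0.23, SD, n = 24). *Fcgbp* ranged from -0.30 to 0.66 and *Zg16*, a lectin that binds Gram-positive bacteria, from -0.20 to 0.53, and both had their lowest value in mouse LL 4. *Clca1*, a mucus-processing metalloprotease, spanned a wider range, from -1.09 in LL 4 to 0.64 in HH 5, a 3.31-fold span, and its mean of -0.27 ± 0.44 (SD, n = 24) was below the reference.

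The regulators *Spdef* (1.43 to 2.67) and *Atoh1* (0.50 to 1.79) were above the reference in all 24 mice, and *Spink4* (0.22 to 1.31) as well. *Retnlb* differed from the other 9 genes. It was far below the reference in every colon mouse, at -4.87 to -2.72 with a mean of -4.26 ± 0.53 (SD, n = 24), so that the reference was on average 19.1-fold brighter than the colon. It was also 28.7-fold brighter than the liver on average. Since the make-up of the reference is unsettled, this gap does not tell how scarce *Retnlb* was in the colon. In HH its lowest, median and highest values were -4.48, -4.16 and -2.72, in HL -4.87, -4.63 and -4.16, in LH -4.82, -4.51 and -3.71, and in LL -4.52, -4.28 and -2.97. The groups overlapped, and HH 4 (-2.72) and LL 1 (-2.97) lay well above the rest of their groups.

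**Figure D1:**
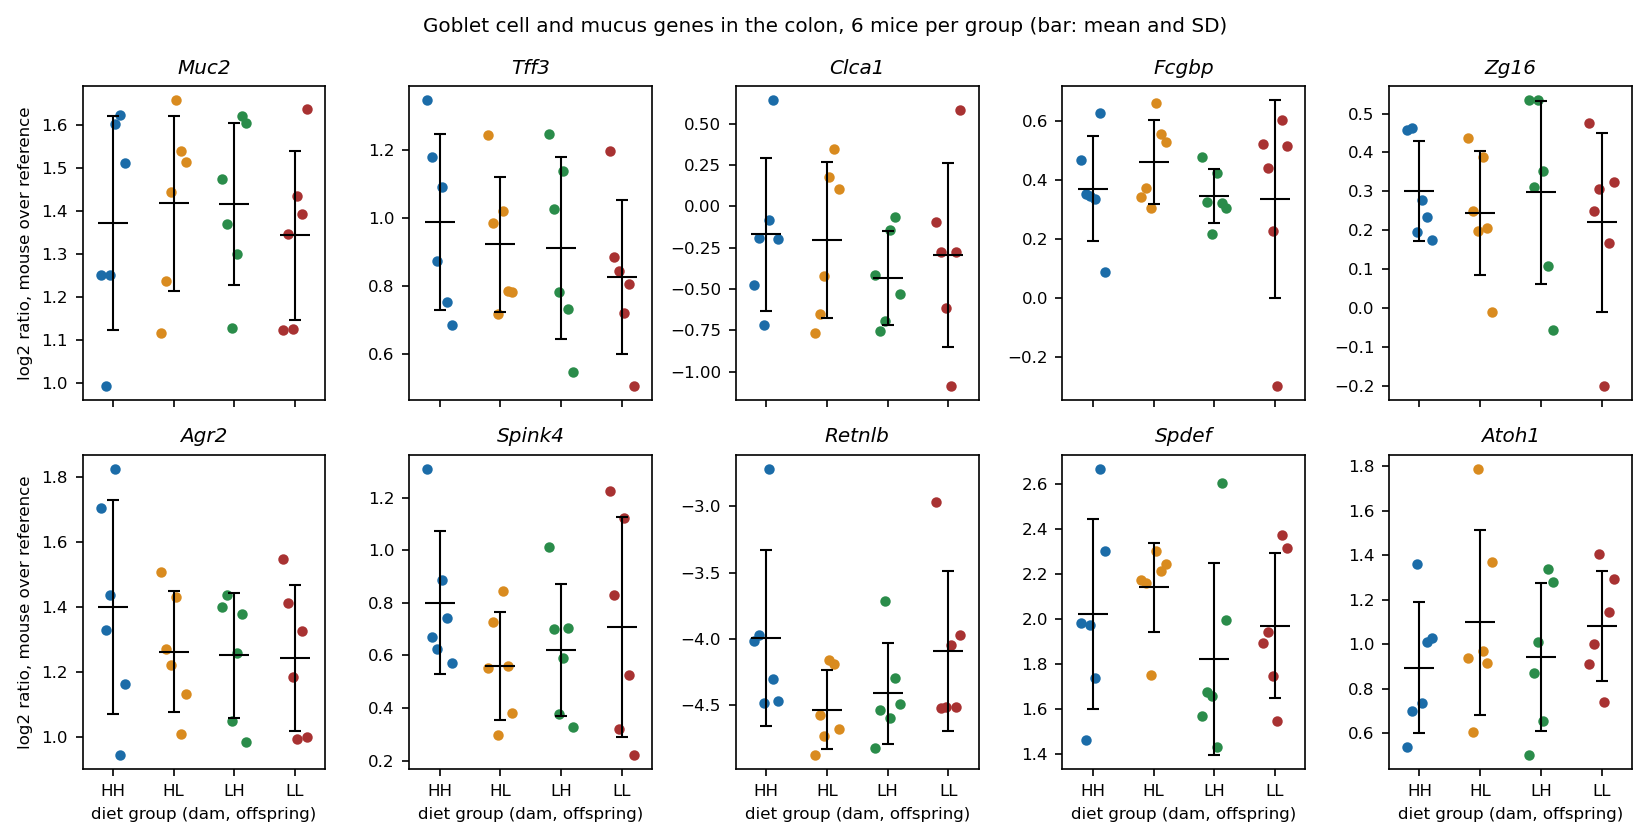
Log2 ratio of mouse over reference (vertical axis, a scale of its own for each gene) of the main probe of each gene in the colon, for the 4 diet groups on the horizontal axis. Each point is 1 mouse (6 per group), and the black bar gives the mean and SD. The groups overlap for every gene, and single mice stand high for *Retnlb* in HH and LL and low for *Fcgbp* and *Zg16* in LL.

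The colon was then set against the liver. Goblet cells are absent from liver parenchyma, although bile duct epithelium can express trefoil peptides and mucins. All 13 probes were called higher in the colon (fold change over 1.5 and adjusted p under 0.05 by limma), against a background of 15.7% of all probes called in that direction. Over the main probes of the 10 genes the median difference was 4.21 on the log2 scale, against -0.01 over all probes tested. The largest differences among the 10 were those of *Clca1* (7.12, SE 0.15, adjusted p = 1.21e-37) and *Agr2* (6.88, SE 0.08, adjusted p = 1.79e-46). In the liver *Clca1* lay between -7.95 and -6.73 and *Agr2* between -5.94 and -5.25, and no colon value came near either range.

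*Tff3* and *Spink4* each differed by 4.56, *Muc2* by 4.40 (SE 0.08), *Zg16* by 4.01, *Fcgbp* by 3.94, *Spdef* by 3.88 and *Atoh1* by 1.82. The second probe of *Fcgbp* gave 4.50. Both other probes of *Muc2* gave less, at 2.52 and 1.84, and neither reached background in the liver as a rule. One was well above background on 0 of 24 liver arrays, and by the Cy3 signal of the mice alone, without the reference, the colon was at least 6.91-fold brighter. The other was above background on 1 of 24 liver arrays. *Atoh1* was above background on 13 of 24 liver arrays, and its liver values (-1.17 to -0.37) did not overlap the colon values (0.50 to 1.79). Its difference between the tissues depended on the processing and ran from 1.66 to 3.36 over 18 other settings.

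The exception was *Retnlb*. Its difference between colon and liver was 0.58 (SE 0.15, 95% interval 0.29 to 0.88, adjusted p = 0.000548), a fold change barely over the threshold. Its liver values ran from -5.21 to -4.50, and 10 of the 24 colon mice lay within that range. For the other 12 probes every colon mouse was above every liver mouse, as for 12% of all probes. Without the mice with *Xist* over 9 its difference was 0.55, which is under the threshold of fold change, and the other probes were still called.

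**Figure D2:**
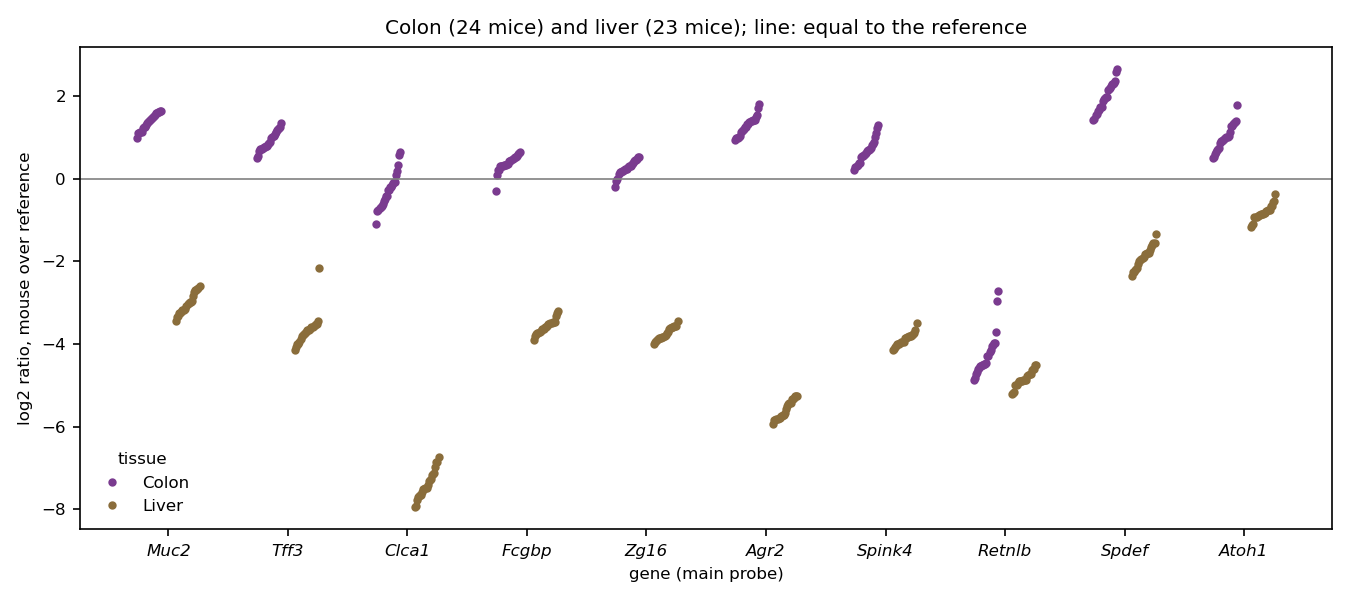
Log2 ratio of mouse over reference (vertical axis) of the main probe of each gene (horizontal axis) in 24 colon mice and 23 liver mice, each point 1 mouse, sorted by value within a tissue, with a line where the mouse equals the reference. Colon and liver are apart for each gene except *Retnlb*, where 10 colon mice lie within the liver range, and 1 liver mouse stands high for *Tff3*.

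The dam diet was compared in the colon as LH and LL averaged, less the average of HH and HL, with slide as a block. None of the 13 probes was called by limma (fold change over 1.5 and adjusted p under 0.05), as was none of all probes (0%). At an unadjusted p under 0.05, 1 of 13 probes passed, against a background of 5.41%. That probe was *Spdef*, the factor of goblet cell maturation. Its lowest, median and highest values were 1.46, 1.98 and 2.67 in HH and 1.75, 2.19 and 2.30 in HL, against 1.43, 1.67 and 2.60 in LH and 1.55, 1.92 and 2.37 in LL. All 4 groups overlapped, and the highest LH mouse (2.60) was above all mice of HL and LL.

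*Spdef* was lower with diet L of the dam by a difference of -0.18 (SE 0.09, 95% interval -0.37 to -0.0036), and lower on 5 of 6 slides, with an unadjusted p of 0.046 and an adjusted p of 0.913. Without the mice with *Xist* over 9 the difference was -0.21 (unadjusted p = 0.0526), and without LL 4 it was -0.16 (unadjusted p = 0.0828). With each mouse left out in turn, the unadjusted p stayed under 0.05 in 7 of 24 cases, and the difference lay between -0.24 and -0.13. *Muc2* differed by -0.01 (95% interval -0.14 to 0.11), *Agr2* by -0.08 (-0.24 to 0.07) and *Tff3* by -0.09 (-0.18 to 0.01). The widest intervals were those of *Clca1* (-0.47 to 0.11) and *Retnlb* (-0.38 to 0.41). The median over the 10 main probes was -0.05, against 0.00 over all probes. Which genes passed depended on the setting. Over 18 other settings of processing, thresholds and mice, the unadjusted limma p was under 0.05 in 11 for *Spdef*, 4 for *Tff3* and 1 for *Agr2*. Some of the 18 change only the thresholds of a call or the mean signal between arrays, and so repeat the unadjusted p of the main fit. The 11 for *Spdef* include these repeats. The difference lay between -0.15 and -0.06 for *Tff3* and between -0.21 and -0.04 for *Agr2*. The lowest adjusted p was 0.567 for *Spdef*, 0.592 for *Tff3* and 0.599 for *Agr2*.

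In the same comparison markers of other cell types moved as follows, and their part in the *Spdef* difference was not tested. Among absorptive colonocyte markers 4 of 14 were lower and 0 higher at an unadjusted p under 0.05 (5.41% of all probes passed in either direction), *Slc51b* among them (-0.20). Without LL 4 1 of 14 was lower (5.66% of all probes passed), and without the mice with *Xist* over 9 it was 7 of 14 (8.18% of all probes). The mean over these 14 markers ran from 0.02 to 0.37 in HH, 0.06 to 0.30 in HL, -0.19 to 0.27 in LH and -0.24 to 0.26 in LL. Of 7 measured macrophage markers 2 were higher, *Adgre1* (0.24) and *C1qc* (0.16), which were 0.19 and 0.10 without LL 4, and the mean of that list ran from 0.26 to 0.67 in HH, 0.17 to 0.63 in HL, 0.44 to 0.83 in LH and 0.37 to 1.12 in LL. In bulk tissue, fewer cells of a type and less RNA per cell cannot be told apart.

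For the offspring diet (HL and LL averaged, less the average of HH and LH) none of the 13 probes was called by limma, and none of all probes was (0%). At an unadjusted p under 0.05, 1 of 13 probes passed, against 5.43% of all probes. This was *Atoh1*, which directs progenitors to the secretory fate. Its lowest, median and highest values were 0.54, 0.87 and 1.36 in HH and 0.50, 0.94 and 1.34 in LH, against 0.60, 0.95 and 1.79 in HL and 0.74, 1.07 and 1.40 in LL. The groups overlapped over most of their ranges.

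*Atoh1* was higher with diet L of the offspring by 0.17 (SE 0.07, 95% interval 0.02 to 0.33), and higher on 5 of 6 slides, with an unadjusted p of 0.0312 and an adjusted p of 0.883. Its difference was 0.22 without the mice with *Xist* over 9 and 0.19 without LL 4. With each mouse left out in turn, the unadjusted p stayed under 0.05 in 15 of 24 cases, and the difference lay between 0.13 and 0.21. *Spdef* differed by 0.13 (95% interval -0.05 to 0.31), *Muc2* by -0.01 (-0.14 to 0.11) and *Retnlb* by -0.11 (-0.50 to 0.28). The median over the 10 genes was -0.04, against 0.00 over all probes. Over the 18 other settings the unadjusted limma p was under 0.05 in 14 for *Atoh1* and in 2 each for *Spdef* and *Tff3*. The 14 for *Atoh1* include settings that repeat the p of the main fit. The diet effects were not shown to differ between the tissues: the difference between colon and liver was 0.23 for *Atoh1* under the offspring diet (adjusted p = 1.0) and -0.09 for *Spdef* under the dam diet (adjusted p = 0.951).

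The interaction asks whether the effect of the offspring diet depends on that of the dam, as LL minus LH less HL minus HH. None of the 13 probes was called by limma, nor was any probe of the array (0%). At an unadjusted p under 0.05, 2 of 13 passed, *Spink4* and *Retnlb*, against 4.79% of all probes. *Spink4* had lowest, median and highest values of 0.57, 0.71 and 1.31 in HH, 0.30, 0.56 and 0.85 in HL, 0.33, 0.65 and 1.01 in LH and 0.22, 0.68 and 1.23 in LL. The groups overlapped, and LL was the most spread of them. Its interaction was 0.33 (SE 0.13, unadjusted p = 0.0225, adjusted p = 0.989) and was above 0 on 6 of 6 slides. The slides were far from alike, with a lowest value of 0.0026, a median of 0.18 and a highest of 0.97.

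*Retnlb* had an interaction of 0.86 (SE 0.38, 95% interval 0.08 to 1.65, unadjusted p = 0.0333, adjusted p = 0.989), above 0 on 4 of 6 slides. With each mouse left out in turn, its unadjusted p stayed under 0.05 in 17 of 24 cases. Without HH 4 that p was 0.0792, and without LL 1 the interaction was 0.59 (unadjusted p = 0.0770). Without the mice with *Xist* over 9, to which LL 1 belongs, the interaction was 0.76 for *Retnlb* (unadjusted p = 0.0930) and 0.30 for *Spink4* (unadjusted p = 0.0992). Without LL 4 the values were 0.95 and 0.27.

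**Figure D3:**
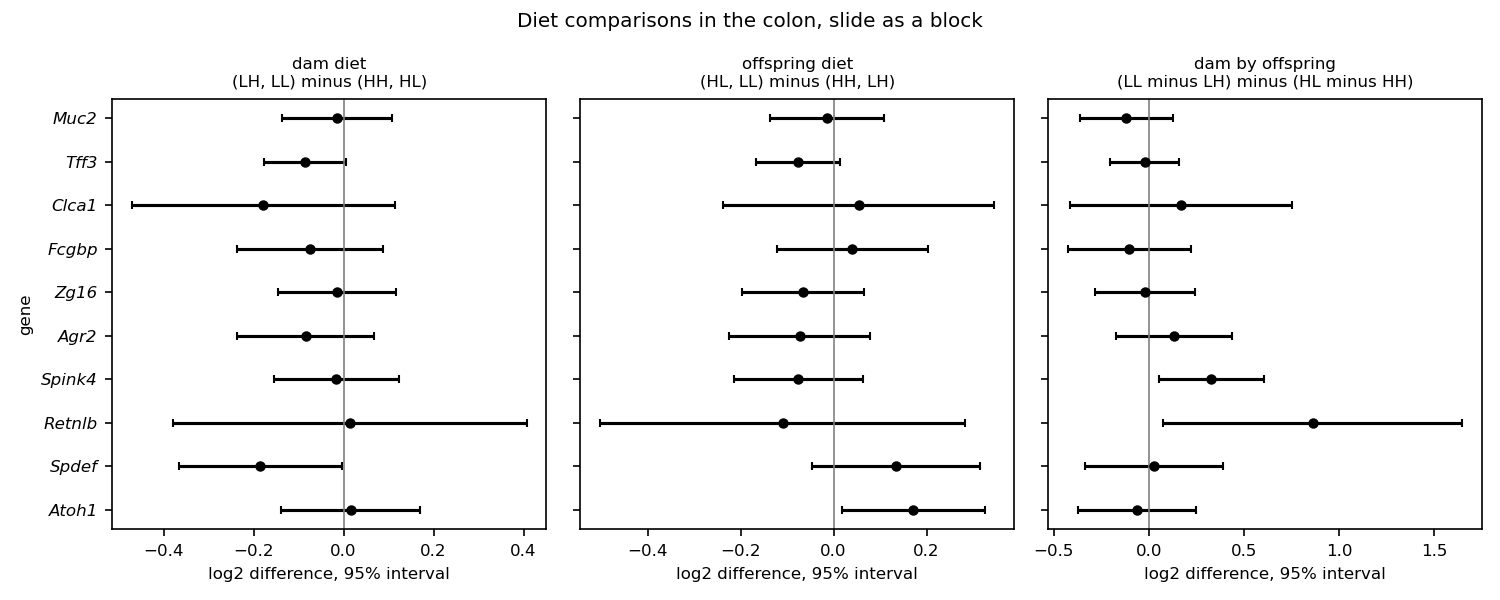
Log2 differences (horizontal axis) of the 10 genes (main probes, vertical axis) in the colon for the dam diet, the offspring diet and their interaction, with slide as a block. Points are estimates over 24 mice and bars are 95% intervals. Intervals lie off 0 for *Spdef* under the dam diet, *Atoh1* under the offspring diet, and *Spink4* and *Retnlb* for the interaction, and none of these passed adjustment over all probes.

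Pairs of groups were compared next, each of which shares mice with others, and no member was called in any of the 6 (0% of all probes in each). At an unadjusted p under 0.05, HH *vs.* LH passed 0 of 13 member probes (background 8.07%), HL *vs.* LL 0 (2.39%) and LH *vs.* LL 0 (7.18%). HH *vs.* HL passed 1 of 13 (background 3.28%), *Spink4*, which was lower in HL by a difference of -0.24 (SE 0.09, adjusted p = 1.0) and on 5 of 6 slides. HH *vs.* LL passed 1 of 13 (background 3.43%). This was *Tff3*, with lowest, median and highest values of 0.69, 0.98 and 1.35 in HH and 0.51, 0.83 and 1.20 in LL. The ranges overlapped, and *Tff3* was lower in LL by a difference of -0.16 (SE 0.06, unadjusted p = 0.0157, adjusted p = 1.0) and on 5 of 6 slides. Without LL 4 this difference was -0.11 (unadjusted p = 0.0714), and without the mice with *Xist* over 9 it was -0.29 (unadjusted p = 0.00251). HL *vs.* LH passed 1 of 13 (background 7.9%), *Spdef*, which was lower in LH by a difference of -0.32 (SE 0.12, unadjusted p = 0.0172, adjusted p = 0.527) and on 5 of 6 slides.

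In the liver none of the 13 probes was called by limma for the dam diet, the offspring diet or their interaction (0% of all probes in each). None passed an unadjusted p under 0.05 either, against backgrounds of 5.59%, 2.03% and 14.2%. The levels were low: *Muc2* ranged from -3.44 to -2.60, with an SD of 0.25 against 0.20 in the colon, and *Zg16* from -4.01 to -3.43. One HH mouse stood apart for *Tff3*. Its arrays, on different slides, gave -2.25 and -2.06, while the other 22 liver mice lay between -4.13 and -3.45. For the main probes of the other 9 genes this mouse was neither the highest nor the lowest of the 23. Between pairs of liver groups no member probe was called (0% of all probes in each of the 6). At an unadjusted p under 0.05, HH *vs.* HL passed 1 of 13 (background 6.48%), HH *vs.* LH 1 (14.8%) and HH *vs.* LL 1 (4.65%), while HL *vs.* LH (2.5%), HL *vs.* LL (4.87%) and LH *vs.* LL (9.51%) passed 0. The probe was *Tff3* each time, lower than in HH by differences of -0.50, -0.49 and -0.48 (adjusted p = 0.763, 0.273 and 0.993). Without the HH mouse that stood apart these were -0.17, -0.16 and -0.15 (unadjusted p = 0.191, 0.215 and 0.244).

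Slide took up more of the spread than diet group did in the colon for each member probe except *Retnlb*. With 6 colon slides and 4 groups, slide also takes the larger share of random spread, so the shares alone do not show an effect. A test of slide in the model (limma, adjusted p under 0.05) was passed by 9 of 13 member probes, against a background of 40.3% of all probes in the colon. In the liver it was passed by 0 of 13, against 4.95%. For *Tff3* slide took up 81.4% of the sum of squares over the 24 colon mice and diet group 6.46% (slide adjusted p = 1.76e-05). For *Atoh1* these shares were 66.6% and 7.85%, and for *Muc2* 59.8% and 2.56%. Slide took up 66.1% for *Spink4*. The *Retnlb* probe behaved otherwise, with 13.0% for slide and 18.7% for group. *Clca1* (40.3% for slide), *Zg16* (43.7%) and the main probe of *Fcgbp* (21.0%) did not pass the test of slide.

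The genes did not all follow the slides in the same way. Mean *Tff3* was 1.26 on slide 7 and 0.63 on slide 12, and mean *Spink4* was 1.02 and 0.38 on the same slides. The main probe of *Muc2* was 1.24 and 1.57 on these slides, whereas its other probes were 1.99 and 1.47, and 2.15 and 1.92. Mean *Atoh1* was 0.72 on slide 7 and 1.24 on slide 12, with its highest mean, 1.39, on slide 9. On slide 7 all 4 mice had *Tff3* values between 1.20 and 1.35, above all mice of the other slides. Both channels varied by slide: the span of slide means for *Tff3* was 0.64 in the Cy3 signal of the mice and 0.51 in the Cy5 signal of the reference, on the log2 scale. For *Clca1* these spans were 0.25 and 0.64. The main probe of *Muc2* had a mean Cy3 signal of 16.66 on slide 7 and 16.51 on slide 12. Its mean Cy5 signal was 15.42 and 14.94, so its higher ratio on slide 12 came with a lower reference signal, not a higher mouse signal. What the slides stand for beyond the hybridisation, such as the order of extraction, is not given in the sources used here.

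**Figure D4:**
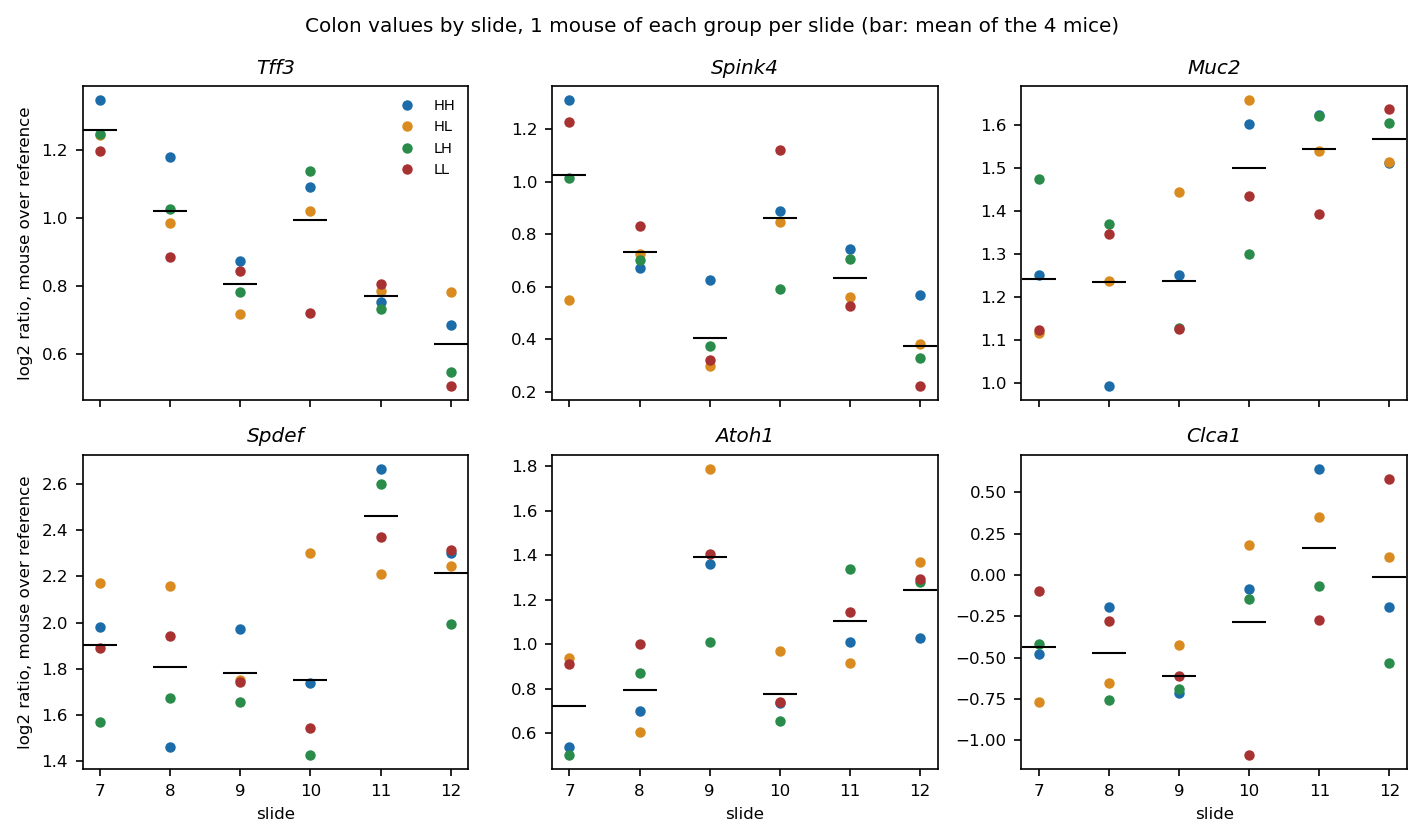
Log2 ratio of mouse over reference (vertical axis) in the colon by slide (horizontal axis, slides 7 to 12 carry the colon arrays), 1 point for each mouse coloured by diet group, with a bar at the mean of the 4 mice of a slide. *Tff3* and *Spink4* are highest on slide 7 and low on slide 12, while the main probe of *Muc2* and *Spdef*, *Atoh1* and *Clca1* are higher on slides 11 and 12 than on slide 7.

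Whether the genes varied together from mouse to mouse was described by setting the other 9 against the main probe of *Muc2* over the 24 colon mice, 9 relations in all. *Clca1* had a Pearson's r of 0.54 (permutation p = 0.00698, 0.0326 adjusted over the 9) and a Spearman's rho of 0.61 (permutation p = 0.00187, adjusted 0.0168). *Spdef* had an r of 0.51 (permutation p = 0.0109, adjusted 0.0326) and a rho of 0.54 (adjusted 0.0232). *Tff3* ran the opposite way, with an r of -0.52 (permutation p = 0.00917, adjusted 0.0326) and a rho of -0.54 (adjusted 0.0232), and so did *Zg16*, with an r of -0.48 (permutation p = 0.0165, adjusted 0.0370) and a rho of -0.43 (adjusted 0.0774).

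Of the 9 relations, 4 passed adjustment, and 0 passed with slide and diet group taken out or without the mice with *Xist* over 9. With slide and group taken out, r was 0.24 for *Clca1*, 0.34 for *Spdef*, -0.49 for *Tff3* and -0.10 for *Zg16*, and a slide holds too few mice for a value of its own. Without the 2 mice farthest from the median of *Muc2*, r was 0.58, 0.51, -0.41 and -0.39. Without LL 4 it was 0.61, 0.55, -0.52 and -0.54. The remaining 5 genes gave r between -0.25 and 0.23. The 3 *Muc2* probes did not track each other closely, since the main probe had r of 0.45 and 0.22 with the others, which correlated at 0.88 with each other. From slide 7 to slide 12 the means of those other probes fell, as did that of *Tff3*, while the main probe rose. The relations above, also the sign of that with *Tff3*, are therefore given for the main probe and not for the gene. Both *Fcgbp* probes had an r of 0.68.

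**Figure D5:**
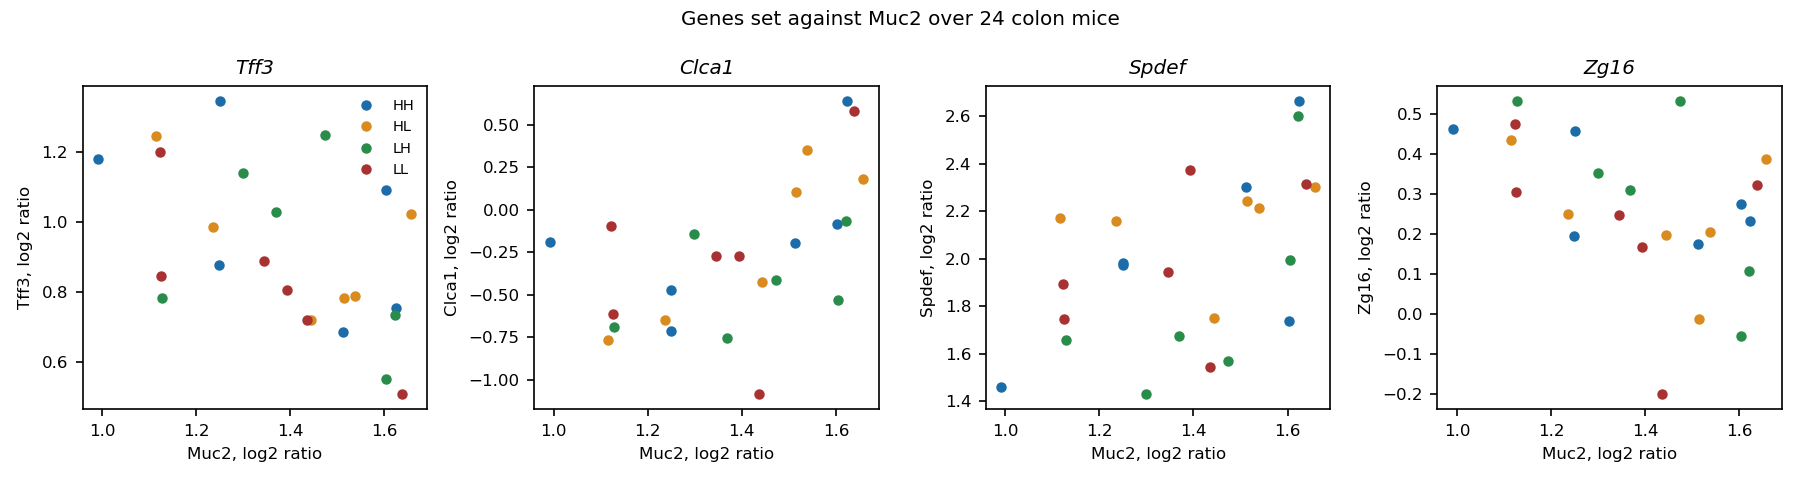
Log2 ratios of *Tff3*, *Clca1*, *Spdef* and *Zg16* (vertical axes) against that of the main probe of *Muc2* (horizontal axes), each point 1 of 24 colon mice, coloured by diet group. Ratios of *Tff3* and *Zg16* are lower in mice with a higher ratio of this *Muc2* probe (r of -0.52 and -0.48). Those of *Clca1* and *Spdef* are higher (0.54 and 0.51), with slides not taken into account in either case.

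Other pairs of the 10 genes are given as r over the same mice, as a description. The closest were *Tff3* and *Agr2* (0.76), *Clca1* and *Fcgbp* (0.68) and *Tff3* and *Zg16* (0.67). With slide and group taken out these were 0.39, 0.76 and 0.44, and the r of *Clca1* with *Zg16* was 0.09 before and 0.74 after. The largest negative values were those of *Atoh1* with *Spink4* (-0.69) and *Tff3* (-0.68), which became -0.06 and -0.08 once slide and group were taken out. Several of these values moved without LL 4, the lowest mouse for *Clca1*, *Fcgbp* and *Zg16*. With slide and group taken out as well, *Clca1* then had an r of 0.51 with *Fcgbp* and 0.52 with *Zg16*, and *Tff3* one of 0.08 with *Agr2* and 0.01 with *Zg16*. Without the mice with *Xist* over 9 these 4 values were 0.88, 0.84, 0.23 and 0.50.

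The 10 named genes whose colon pattern was most like the mean of the standardised goblet cell genes were taken from 14278 genes over 24 mice. This mean does not stand for each of its genes. Its r was 0.74 with *Fcgbp* and 0.64 with *Clca1*, but 0.26 with *Muc2* and -0.15 with *Atoh1*. The 10 most similar genes were *Slc25a40* (r = 0.74), *Pla2g2c* (0.72), *Slc35a3* (0.70), *Abhd2* (0.69), *Vps37a* (0.68), *Lrrc73* (0.67), *Ern2* (0.67), *Slc7a4* (0.67), *Sync* (0.66) and *Fastk* (0.66), against a median of 0.02 over the genes compared. With slide and group taken out, these 10 had r from 0.62 to 0.76. *Ern2* encodes the stress sensor IRE1 beta of the goblet cell endoplasmic reticulum, and *Slc35a3* a transporter of UDP-N-acetylglucosamine into the Golgi. The highest r of a large number is large by selection. Without LL 4 these 10 had r from 0.52 to 0.74 and 2 of them, *Ern2* and *Sync*, were still among the 10 highest, and without the mice with *Xist* over 9 it was 1 of them, *Pla2g2c*.

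Lists of related genes were described beside the 10. In the colon, none of the genes in the 21 lists was called for the dam or the offspring diet. The shares of all probes at an unadjusted p under 0.05 were 5.41% for the dam diet and 5.43% for the offspring diet, and nothing particular to a list is read from its count. Of the other goblet cell products 22 of 25 genes were measured. At that p, 1 was lower under the dam diet, the membrane mucin *Muc13* (-0.14), and 2 under the offspring diet, *Sval1* (-0.30) and *Nupr1* (-0.29). Among 20 measured enzymes of mucin O-glycosylation, which add the sugar chains of mucins, 0 passed for the dam diet and 1 for the offspring diet, *St6galnac2* (-0.13). Among 17 regulators of the secretory lineage, *Hes1* (0.20), the Notch target that represses *Atoh1*, was higher and *Foxa3* (-0.17) lower under the dam diet. Under the offspring diet *Notch1* (0.14) and *Bhlha15* (0.26) were higher and *Creb3l4* (-0.11) lower.

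Beyond these, *Dclk1* of the type 2 cytokine axis (0.14), *Retnlg* of the resistin family (0.39) and the neuronal *Elavl4* (0.14) were higher, and the epithelial cadherin *Cdh17* (-0.23) and *Lep* of the fat list (-0.63) lower, under the dam diet at an unadjusted p under 0.05. Under the offspring diet *Clca2* (0.12) and the Paneth cell gene *Mmp7* (0.16) were higher, and *Adgre1* (-0.17) and the hindgut gene *Hoxb13* (-0.11) lower. Without LL 4, 4 of 7 macrophage markers were lower and 4 of 14 absorptive colonocyte markers higher under the offspring diet (5.73% of all probes passed). Without the mice with *Xist* over 9 it was 0 of 7 and 0 of 14 (7.08% of all probes). Of the 14 list genes at that p for the dam diet, 9 kept it without LL 4 and 11 without the mice with *Xist* over 9, and of the 10 for the offspring diet, 8 and 4 did. No gene passed it for either diet among the gastric and airway mucins, enteroendocrine cells, crypt stem and cycling cells, smooth muscle, fibroblasts and endothelium, lymphocytes and plasma cells, pancreas and hepatocytes.

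The mean of the 10 goblet cell genes was set against the mean of each list over the 24 colon mice, as a description. It went most closely with the other goblet cell products, at an r of 0.68 and a rho of 0.66, and next with smooth muscle (0.60) and absorptive colonocytes (0.55). Without the 2 mice farthest from the median these were 0.68, 0.61 and 0.44, and with slide and group taken out 0.78, 0.61 and 0.65. For mucin O-glycosylation r was 0.46, and 0.66 with slide and group taken out. For the epithelium it was 0.15, 0.63 with slide and group taken out and -0.15 without LL 4. Lymphocytes and plasma cells ran the other way, at -0.42, and at -0.13 without LL 4. Genes and lists share the same libraries in each of these values.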

How the data were processed

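RNA was labelled with Cy3 for each mouse and with Cy5 for the reference, without a dye swap. The authors deposited scanner output as intensity of each spot and its background, not normalized between arrays, and, in a further table, log2 values of the reference against the mouse, which matched loess without background correction. Here median intensities were background-corrected with normexp (offset 50), after a spot whose local background was at least as bright as the spot received the array's median background, normalized by loess within arrays, and averaged over the spots of a probe as log2 of mouse over reference. For 1 HH liver mouse with 2 arrays the mean was taken.

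Models were fitted to each tissue with limma 3.58.1 in R 4.3.3 (lmFit and eBayes, 4 groups, slide as a block), and p-values were adjusted by Benjamini-Hochberg over all probes. Slide was kept as a block since deviations of mice on 1 colon slide correlated at 0.36 (median of 36 pairs, lowest 0.09), against -0.13 between slides. Both tissues were fitted together with slide as a random block. A call needed a fold change over 1.5 and adjusted p under 0.05. Correlations used 100000 permutations and two-sided p-values. The code was tested on simulated data. Probes were named through accessions in RefSeq's table.

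Named were all probes of the 10 genes, from each list its called genes or the 3 with the lowest p (printed where the unadjusted p was under 0.05), and the 10 most similar genes. Members and lists were chosen with earlier results of these data known. Alternatives are given in the closing section.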

Additional observations from a re-analysis of the deposited data

Results flagged for a closer look

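Of 104 groups of mice tested for 1 value far from the rest (13 probes, 4 groups, colon and liver), 7 were picked out, and chance gives about 1 in 20. In the colon, *Retnlb* had a high value of -2.72 in HH 4 (the next was -3.97) and one of -2.97 in LL 1 (the next was -3.97). *Spdef* had a low value of 1.75 in HL 3, below 2.16 in the next mouse. In the liver, *Tff3* had a high value of -2.15 in the HH mouse with 2 arrays, against -3.45 in the next, and the same mouse had the lowest HH value of a *Muc2* probe that was below background in the liver (-0.79). The main probe of *Fcgbp* was high in LL 6 (-3.20) and *Atoh1* in LH 1 (-0.53).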

How the results depend on the processing

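Calls of member probes were recomputed under other background corrections, normalizations, channels, filters, weights, thresholds and sets of mice, and with each mouse left out. The number of member probes called stayed at 0 under every alternative run for the dam diet, the offspring diet and their interaction in both tissues. It also stayed at 0 for the pairs of colon groups, and the pairs of liver groups are not part of this count. With no replicate block the number called was also 0 in each of these, and the unadjusted p of *Spdef* under the dam diet rose from 0.046 to 0.180, of *Atoh1* under the offspring diet from 0.0312 to 0.181 and of the *Spink4* interaction from 0.0225 to 0.159. For the colon against the liver 12 or 13 probes were called with each mouse left out, and *Retnlb* was the probe that was lost, in 22 of 47 cases. It was also lost at a difference of 0.58 without the repair of the background or with only the first array of the HH liver mouse, of 0.55 without the mice with *Xist* over 9, and of 0.50 without those of them that lacked *Eif2s3y*. Of the 9 relations with *Muc2*, 4 passed adjustment over the 9, and 0 passed with slide and group taken out or without the mice with *Xist* over 9. Without these mice the goblet mean and the other goblet cell products had an r of 0.83. The alternatives without LL 4, and those without the mice with *Xist* over 9 for lists, pairs and similar genes, were added after seeing the data. Without LL 4 the r with the epithelium turned to -0.15.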
